A study of Mus musculus with 6 samples.

Results

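Mast cell and basophil genes are described here as 10 named genes: *Prss34*, *Mcpt8*, *Cma1*, *Cpa3*, *Ms4a2*, *Fcer1a*, *Hdc*, *Mitf*, *Tpsb2* and *Il1rl1*. They were found by gene symbol in a table of 54532 genes, and all 10 were in it. The table held RNA-seq values of LSK (Lin-Sca1+c-Kit+) cells, the stem and multipotent progenitor fraction of mouse bone marrow, in 3 control and 3 *Myh9*-deficient libraries. *Myh9* encodes the heavy chain of non-muscle myosin IIA. The *Myh9*-deficient libraries, which the labels call cKO, came from Myh9fl/fl;Mx1-cre mice, and the control libraries, CTRL, from littermates that were Myh9fl/fl;no cre. All mice were C57BL/6 and both groups carried the floxed allele. Both groups also received poly I:C at 5 mg/kg, every other day, in 2 doses by the sample labels and 3 by the study's methods. Mice were genotyped at 4 to 5 weeks of age by the labels and injected at 5 to 6 weeks by the methods. LSK cells were sorted at day 4 after the first injection, 100000 cells a sample. Poly I:C induces interferon, which turns on the Mx1 promoter that drives Cre, so the controls were interferon-exposed too, and this Cre is not limited to blood cells. The controls carried no Cre, so that Cre itself and the loss of *Myh9* cannot be told apart. The study describes 3 separate sets of LSK cells for each genotype. How many mice each set held is not given in the sources used here, and p-values measure the spread between these samples.

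Mast cells and basophils are granulocytes that bind IgE through the high-affinity receptor FcεRI and release histamine, proteases, lipid mediators and cytokines when the bound IgE is cross-linked. Basophils mature in the bone marrow and circulate, whereas mast cell progenitors leave the marrow and mature in tissues, where their granules fill with chymases, tryptases and carboxypeptidase A3 bound to heparin. Transcription factors of the GATA family, MITF and RUNX proteins are among the regulators known for these lineages. c-Kit, on which the LSK gate selects, is also carried by mast cells.

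In *Myh9*-deficient LSKs, 5 of the 10 genes were higher than in control at an adjusted p under 0.05 and none was lower. These were the granule protease genes *Prss34*, *Mcpt8*, *Cma1* and *Cpa3* and the IgE-binding receptor chain *Fcer1a*. Of all 11552 genes tested, those with a mean of at least 1 FPKM (fragments per kilobase of gene scaled to library size) over the 6 libraries, 19.9% were called higher and 20.6% lower. *Ms4a2*, *Hdc* and *Il1rl1* were tested and not called, and *Mitf* and *Tpsb2* were below the filter. *Cma1* and *Fcer1a* had a mean of at least 1 FPKM only in the *Myh9*-deficient libraries and passed through them, so they had to differ to be tested. Over the 24337 genes with any value above 0, all 3 *Myh9*-deficient libraries lay above all 3 controls for 17.1% and below them for 16.1%. For the 10 genes this was so upward for 7 (the 5 called genes, *Tpsb2* and *Il1rl1*) and downward for 1, *Mitf*. On the log2(FPKM + 1) scale, genes over 2-fold higher at an unadjusted p under 0.05 made up 1.43% of those tested, and *Prss34* and *Cma1* were among them. *Fcer1a* was over 2-fold higher by its ratio of means, 3.43, but not on that scale, where the pseudocount of 1 shrinks the fold change of low genes.

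**Figure D1:**
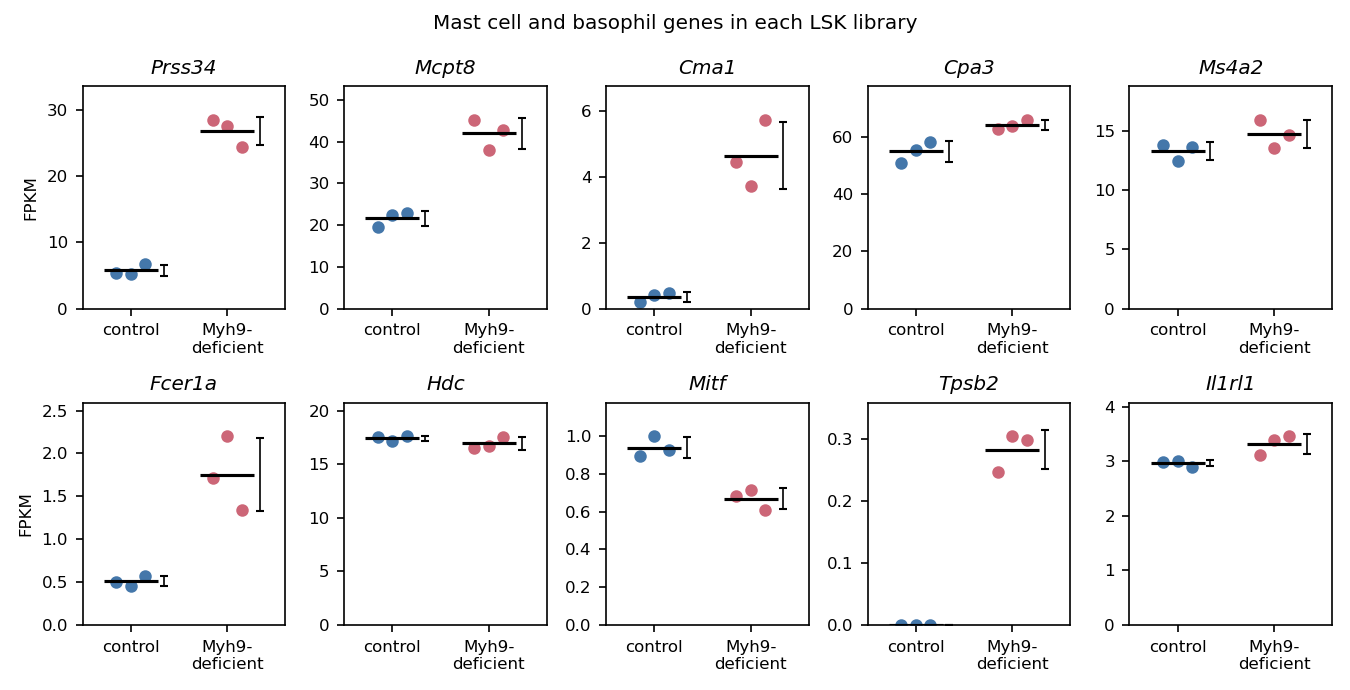
FPKM (vertical axis, from 0, with its own scale in each panel) of the 10 genes in each control (blue) and *Myh9*-deficient (red) library; the horizontal bars are means and the error bars SDs of 3 libraries. The 2 groups are apart for *Prss34*, *Mcpt8*, *Cma1*, *Cpa3*, *Fcer1a*, *Tpsb2* and *Il1rl1* upward and for *Mitf* downward, and they overlap for *Ms4a2* and *Hdc*.

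The sequences before the start sites of the 5 called genes are shown because these are the genes the test called. RefSeq (GRCm38.p6) gave start sites for 9 of the 10 genes, in 12 windows of 250 bases upstream, some genes having several starts; *Tpsb2* was not matched. Each is written 5′ to 3′ along the gene's strand in GRCm38 coordinates. Capitals mark every match, on either strand, to GATAA (the core bound by GATA factors), CATGTG (an E-box core bound by MITF) and TGTGGT (a core bound by RUNX factors), and no matches overlapped. For *Mcpt8* the window is given only as far as the gene's start in the deposited table, 174 bases.
*Prss34*, chr17:25298144-25298393, plus strand: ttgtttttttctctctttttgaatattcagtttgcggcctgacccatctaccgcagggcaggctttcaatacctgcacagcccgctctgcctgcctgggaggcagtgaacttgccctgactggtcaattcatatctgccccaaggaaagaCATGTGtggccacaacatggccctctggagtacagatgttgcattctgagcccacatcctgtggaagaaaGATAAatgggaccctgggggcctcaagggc
*Cma1*, chr14:55944676-55944925, minus strand: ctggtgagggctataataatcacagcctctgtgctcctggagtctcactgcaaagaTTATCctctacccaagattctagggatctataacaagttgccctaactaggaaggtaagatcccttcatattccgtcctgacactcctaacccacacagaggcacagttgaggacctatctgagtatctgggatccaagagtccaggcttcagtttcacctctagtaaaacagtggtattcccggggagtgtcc
*Fcer1a*, chr1:173227230-173227479, minus strand: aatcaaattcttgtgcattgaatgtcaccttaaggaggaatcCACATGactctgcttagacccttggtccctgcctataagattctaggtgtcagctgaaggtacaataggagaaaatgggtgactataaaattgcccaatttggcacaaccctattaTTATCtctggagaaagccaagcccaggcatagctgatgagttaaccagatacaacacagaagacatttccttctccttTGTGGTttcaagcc
*Mcpt8*, chr14:56085274-56085447, minus strand: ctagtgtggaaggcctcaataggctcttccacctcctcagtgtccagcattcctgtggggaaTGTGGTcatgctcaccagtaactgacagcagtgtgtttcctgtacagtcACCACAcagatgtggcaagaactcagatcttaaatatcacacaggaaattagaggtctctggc
*Cpa3*, chr3:20242182-20242431, minus strand: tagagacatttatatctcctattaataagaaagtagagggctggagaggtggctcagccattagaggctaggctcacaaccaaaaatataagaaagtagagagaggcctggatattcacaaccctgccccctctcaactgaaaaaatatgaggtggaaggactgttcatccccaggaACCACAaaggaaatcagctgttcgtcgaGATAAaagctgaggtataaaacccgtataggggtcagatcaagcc

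GATAA was present in 9 of the 12 windows, those of 7 of the 9 genes, and in 22.6% of 32851 windows of that length before RefSeq start sites. In *Prss34* its first base lay 30 bases before the start, in *Cpa3* 45, in *Fcer1a* 92 and in *Cma1* 194. *Mcpt8* and *Hdc* had none in their windows. CATGTG was in 2 of the 12 windows, *Prss34* and *Fcer1a*, and in 12.3% of all. TGTGGT was in 5 of the 12 and 14.0% of all, and *Mcpt8* held 2 matches. These are descriptions of letters in a window, and binding was not measured.

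Among the granule proteases, *Prss34* had the largest called log2 fold change together with *Cma1*. *Prss34* (ENSMUSG00000056399, chr17:25298394-25300161, plus strand, 5 exons) encodes a serine protease of mast cells and basophils. Its level was 5.29, 5.18 and 6.77 FPKM in control replicates 1, 2 and 3 and 28.5, 27.6 and 24.4 FPKM in the *Myh9*-deficient replicates. Every *Myh9*-deficient library was thus far above every control library. These values rest on 111 to 158 reads a library in control and 553 to 649 in *Myh9*-deficient LSKs. The mean went from 5.75 ± 0.887 to 26.8 ± 2.12 FPKM (SD, n = 3 each), a ratio of 4.67. The log2 fold change on the log2(FPKM + 1) scale was 2.05 ± 0.101 (SE, limma, Benjamini-Hochberg adjusted p = 2.8e-05). It ranged from 1.96 to 2.24 over 18 other settings, some of which, such as another filter, cannot change it.

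*Mcpt8* (ENSMUSG00000022157, chr14:56082166-56085273, minus strand, 5 exons) encodes the granule protease by which mouse basophils are commonly recognized. It was at 19.6, 22.4 and 22.8 FPKM in control LSKs and 45.2, 38.0 and 42.8 FPKM in *Myh9*-deficient LSKs, with no overlap. From a mean of 21.6 ± 1.78 to 42.0 ± 3.68 FPKM (SD, n = 3 each), the ratio was 1.94 and the log2 fold change 0.93 ± 0.080 (SE; limma adjusted p = 0.000277). A microRNA gene lies inside it, *Mir6949*, which was listed at 0 in every library. *Mcpt8* and *Prss34* were thus both higher in every *Myh9*-deficient library.

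*Cma1* (ENSMUSG00000022225, chr14:55941451-55944675, minus strand, 5 exons) encodes mast cell chymase. In control LSKs it was near the lower limit of detection, at 0.185, 0.416 and 0.478 FPKM, or 4, 8 and 10 reads. In *Myh9*-deficient LSKs it was at 4.46, 3.72 and 5.72 FPKM, or 91, 74 and 116 reads. The *Myh9*-deficient libraries all lay well above the controls, and the ratio of means (0.360 ± 0.155 to 4.63 ± 1.01 FPKM; SD, n = 3 each) was 12.9, the largest among the called genes. The log2 fold change was 2.04 ± 0.149 (SE; limma adjusted p = 0.000134) with a pseudocount of 1. For a gene this low the pseudocount sets much of that value, and it was 3.41 with a pseudocount of 0.1 and 3.71 with voom on the reads.

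*Cpa3* (ENSMUSG00000001865, chr3:20215620-20242181, minus strand, 11 exons), which encodes mast cell carboxypeptidase A3, was the most abundant of the 10 genes in both groups. Control libraries had 51.0, 55.5 and 58.2 FPKM and *Myh9*-deficient libraries 62.7, 63.7 and 65.9 FPKM, close together but not overlapping. The ratio of means (54.9 ± 3.64 to 64.1 ± 1.61 FPKM; SD, n = 3 each) was 1.17 and the log2 fold change 0.22 ± 0.050 (SE; limma adjusted p = 0.0136). This call was lost when the trend with gene length was removed from each library (adjusted p = 0.0612) and when GC content was removed as well (adjusted p = 0.0974). Over 18 alternatives its adjusted p ranged from 0.000374 to 0.0974. The gene overlaps *Mir7007* on the same strand, whose reads could be shared.

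*Tpsb2* (ENSMUSG00000033825, chr17:25366550-25368094, plus strand, 6 exons) encodes a mast cell tryptase. It had 0 reads in all 3 control libraries and 5, 6 and 6 reads, or 0.247, 0.304 and 0.298 FPKM, in the *Myh9*-deficient libraries. It was below the filter on level. The *Myh9*-deficient mean was 1.92 times a floor of 3 reads in each control library. That floor allows for counting error in the controls only, so 1.92 is not a lower bound on the fold. The exact two-sided permutation test gave p = 0.1, the smallest that 3 against 3 allows. With no filter limma called *Tpsb2* higher, with an adjusted p of 0.001. Its near copy *Tpsab1*, another tryptase gene, had 0 reads in every library, and reads shared by such copies are assigned uncertainly.

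The chains of FcεRI were called in different ways, and the differences between them were not tested. *Fcer1a* (ENSMUSG00000005339, chr1:173221284-173227214, minus strand, 5 exons) encodes the α chain, which binds IgE. It was at 0.504, 0.455 and 0.574 FPKM in control LSKs and 1.71, 2.20 and 1.35 FPKM in *Myh9*-deficient LSKs. The groups were apart, but on few reads, 8 to 11 a library in control and 25 to 40 in *Myh9*-deficient LSKs. The ratio of means (0.511 ± 0.060 to 1.75 ± 0.427 FPKM; SD, n = 3 each) was 3.43 and the log2 fold change 0.85 ± 0.125 (SE; limma adjusted p = 0.00234), or 1.58 with a pseudocount of 0.1 and 1.72 with voom on the reads.

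*Ms4a2* (ENSMUSG00000024680, chr19:11615523-11623719, minus strand, 7 exons) encodes the β chain, which amplifies the receptor's signal. Its levels of 13.8, 12.4 and 13.6 FPKM in control LSKs and 15.9, 13.6 and 14.7 FPKM in *Myh9*-deficient LSKs overlapped, and it was not called (log2 fold change 0.14 ± 0.066, SE; limma adjusted p = 0.147). *Fcer1g*, the γ chain that FcεRI shares with other Fc receptors, fell from 119 ± 2.66 to 76.7 ± 2.01 FPKM (SD, n = 3 each), a log2 fold change of -0.63 (limma adjusted p = 2.57e-05). The level of *Fcer1a* over that of *Ms4a2*, both per length, was 0.0365 to 0.0422 in control libraries and 0.0919 to 0.162 in *Myh9*-deficient libraries, so that the α chain stayed far below the β chain in both.

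*Hdc* (ENSMUSG00000027360, chr2:126593667-126619299, minus strand, 12 exons) encodes histidine decarboxylase, which makes histamine. It had 17.5, 17.2 and 17.6 FPKM in control LSKs and 16.5, 16.7 and 17.6 FPKM in *Myh9*-deficient LSKs. The groups overlapped and the log2 fold change of -0.04 ± 0.035 (SE; limma adjusted p = 0.407) was not called, on 1932 to 2228 reads a library. The spread between replicates was about as wide as the step between the groups.

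*Il1rl1* (ENSMUSG00000026069, chr1:40429570-40465415, plus strand, 11 exons) encodes ST2, the receptor for interleukin-33, which activates mast cells and basophils. It was at 2.99, 2.996 and 2.89 FPKM in control LSKs and 3.11, 3.39 and 3.45 FPKM in *Myh9*-deficient LSKs. The *Myh9*-deficient libraries lay just above the controls, yet the gene was not called (log2 fold change 0.12 ± 0.056, SE; limma adjusted p = 0.123). It was called higher with the length trend removed (adjusted p = 0.0324) and with the length and GC trends removed (adjusted p = 0.0459), over a range of 0.0324 to 0.268 across 17 alternatives.

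*Mitf* (ENSMUSG00000035158, chr6:97807052-98021349, plus strand, 10 exons) encodes a transcription factor needed for mast cell development. It was the single gene of the 10 with all *Myh9*-deficient libraries below all controls, at 0.893, 0.998 and 0.925 FPKM in control LSKs and 0.681, 0.717 and 0.607 FPKM in *Myh9*-deficient LSKs. These were 109 to 110 reads a library against 70 to 81, and the ratio of means was 0.712. Its mean was below the filter, the exact two-sided permutation test gave p = 0.1, the smallest possible with 3 against 3, and limma with no filter gave an adjusted p of 0.0763.

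In order of level per length, control LSKs ran from *Cpa3* through *Mcpt8*, *Hdc*, *Ms4a2*, *Prss34*, *Il1rl1*, *Mitf*, *Fcer1a* and *Cma1* to *Tpsb2*. The neighbours *Fcer1a* and *Cma1* overlapped between libraries, and every other neighbouring pair was apart. In *Myh9*-deficient LSKs the order was *Cpa3*, *Mcpt8*, *Prss34*, *Hdc*, *Ms4a2*, *Cma1*, *Il1rl1*, *Fcer1a*, *Mitf* and *Tpsb2*, with no neighbours overlapping. *Prss34* thereby moved from place 5 to place 3 and *Cma1* from place 9 to place 6. The protease genes also changed relative to *Cpa3*. The ratio of *Prss34* to *Cpa3* FPKM was 0.104 ± 0.0115 in control and 0.419 ± 0.0432 in *Myh9*-deficient LSKs, and that of *Mcpt8* to *Cpa3* was 0.393 ± 0.0101 and 0.655 ± 0.0629 (SD, n = 3 each). The summed level of the 10 genes went from 118 ± 6.04 to 175 ± 4.77 FPKM (SD, n = 3 each). In bulk RNA of a sorted population, more cells of a type and more RNA per cell cannot be told apart.

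**Figure D2:**
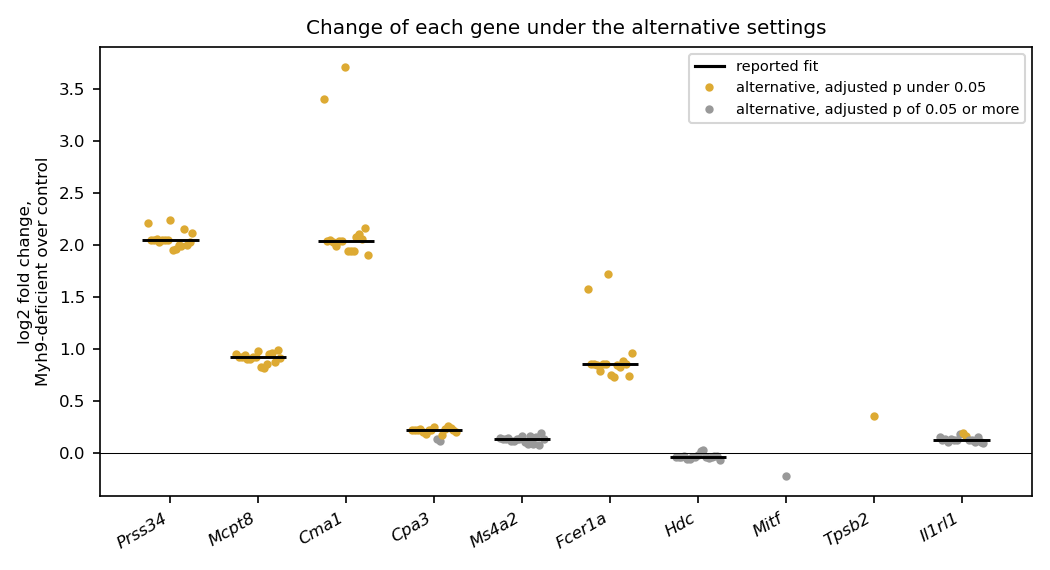
Log2 fold change (vertical axis, *Myh9*-deficient over control) of each of the 10 genes in the reported limma fit (black bar) and under each alternative setting (dots, yellow where the adjusted p was under 0.05 and grey otherwise). *Prss34* stayed between 1.96 and 2.24, the high points of *Cma1* and *Fcer1a* are those with a pseudocount of 0.1 and with voom, and *Mitf* and *Tpsb2* have a value only with no filter.

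The wider program of mast cells and basophils did not move as one. Of 90 related genes listed by role, 67 were tested, and limma called 17 of them higher and 32 lower, against 19.9% higher and 20.6% lower over all genes tested. Their median log2 fold change was -0.11, against -0.01 over all genes tested. At over 2-fold on the log2(FPKM + 1) scale and an unadjusted p under 0.05, none of the 67 was higher and 4 were lower. Of all genes tested, 1.43% were higher and 0.701% lower in this way. By the ratio of means, which has no pseudocount, *Cd33* (2.25) and *Ltc4s* (2.07) among the 67 were over 2-fold higher. The filter left out 23 of the 90 genes. Among these, *Hpgds*, *Cd200r3*, *Il18r1*, *Il9r* and *Bhlhe41* had every *Myh9*-deficient library above every control, and *Il1rap* and *Pilra* had every one below. Of all 90, 24 lay above and 36 below in this way, against 17.1% and 16.1% of genes with any value.

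Of the 8 related granule proteases, only *Ctsg* (cathepsin G, which neutrophils also store) was tested, and it fell from 1785 ± 38.6 to 1367 ± 17.2 FPKM (SD, n = 3 each, limma adjusted p = 8.08e-05). *Mcpt1*, *Mcpt9*, *Tpsab1* and *Tpsg1* had 0 reads in every library, which allows up to 3 reads each, and *Mcpt2*, *Mcpt4* and *Cma2* had at most 5, 2 and 1. These are proteases of mature mast cells, and at this depth they were not detectable or nearly so.

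Among 10 genes of granule storage, release and amines, all tested, 3 rose and 1 fell, against 19.9% and 20.6% of all genes tested, so that no difference from the rest is read from these counts. *Cd63*, a granule membrane protein used as a basophil activation marker, rose from 45.8 to 60.9 FPKM, and *Vamp8*, a vesicle fusion protein, from 104 to 137 FPKM, each by 0.40 on the log2 scale. *Slc18a2*, which loads histamine into granules, rose by a log2 step of 0.24, and *Lamp2*, a lysosomal membrane protein, fell by 0.28. *Srgn*, the proteoglycan core that holds granule proteases, was at 483 ± 3.58 and 468 ± 3.75 FPKM (SD, n = 3 each) and was not called.

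Genes that signal below FcεRI were called lower more than higher. Of 16 listed, 15 were tested. Of these, 2 rose and 10 fell, against 19.9% higher and 20.6% lower of all genes tested, and the median log2 fold change was -0.22. Beside *Fcer1g*, these included the adaptor *Gab2* (5.97 to 3.86 FPKM, log2 fold change -0.52), the calcium channel *Itpr1* (-0.31) and the lipid phosphatase *Inpp5d* (-0.27), and the kinases *Lyn* and *Syk* were called lower too. The 2 higher genes were the adaptor *Lat*, which rose from 9.24 to 14.4 FPKM (log2 fold change 0.58), and *Plcg1* (0.20). Many of these genes act below other receptors of blood cells as well.

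Lipid mediator genes moved mostly up: of 7 listed, 6 were tested, 5 higher and 1 lower. Of all genes tested, 19.9% were called higher and 20.6% lower. *Ltc4s*, leukotriene C4 synthase, rose from 2.41 ± 0.548 to 4.99 ± 1.09 FPKM (SD, n = 3 each, log2 fold change 0.81, limma adjusted p = 0.0102). *Ptgs1* (0.56), *Alox5* (0.31), *Pla2g4a* (0.25) and *Alox5ap* (0.10) rose by smaller log2 steps. *Ptgs2*, the inducible cyclooxygenase, fell from 2.20 ± 0.294 to 0.570 ± 0.0338 FPKM (SD, n = 3 each, log2 fold change -1.02, limma adjusted p = 0.000289). It passed the filter only through the control libraries, so it had to differ to be tested. *Hpgds*, which makes prostaglandin D2, was below the filter, with means of 0.110 FPKM in control LSKs and 0.255 FPKM in *Myh9*-deficient LSKs.

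Of 19 receptor genes, 10 were tested, 3 higher and 6 lower, against 19.9% and 20.6% of all genes tested. No difference from the rest is read from the higher calls. The sialic acid-binding receptor *Cd33* rose from 0.888 to 1.998 FPKM (log2 fold change 0.67, tested only through its level in the *Myh9*-deficient libraries), the prostaglandin receptor *Ptger3* from 3.64 to 5.43 FPKM (0.47) and the thymic stromal lymphopoietin receptor *Crlf2* from 57.8 to 64.7 FPKM (0.16). Chains of the receptors for interleukin-3, on which basophils depend, fell: *Il3ra* by 0.32, *Csf2rb* by 0.33 and *Csf2rb2* by 0.25 on the log2 scale. *Il4ra*, the interleukin-4 receptor chain, fell by 0.37 on the same scale. *Mrgprb2*, a receptor of connective tissue mast cells, had at most 1 read in a library, and the basophil receptor *Cd200r3* at most 21.

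Of 11 cytokine genes, 7 were tested, with 1 higher and 4 lower, against 19.9% and 20.6% of all genes tested. The share of higher calls was near that of all genes. *Ccl6* rose by a log2 step of 0.31, whereas *Osm* fell from 30.4 to 10.5 FPKM (-1.45), *Ccl4* from 62.8 to 28.1 FPKM (-1.14), *Ccl3* from 72.2 to 46.3 FPKM (-0.63) and *Ccl9* by 0.32 on the log2 scale. *Il4*, a cytokine of basophils, was at 1.25 ± 0.174 and 1.20 ± 0.260 FPKM (SD, n = 3 each) and was not called. *Il5* and *Il9* had 0 reads in all libraries.

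Of 19 transcription factor genes, 18 were tested, 3 higher and 9 lower, where 19.9% and 20.6% of all genes tested were. The higher calls were thus about as frequent as over all genes. *Gata2*, required for both lineages, rose from 35.2 ± 0.313 to 40.0 ± 0.489 FPKM (SD, n = 3 each, limma adjusted p = 0.00214). *Gata1* rose from 33.0 to 42.4 FPKM (log2 fold change 0.35) and its partner *Zfpm1* by a log2 step of 0.20. *Irf8*, a factor of monocytes and dendritic cells that also acts in basophil and mast cell progenitors, fell from 52.1 ± 0.553 to 14.5 ± 1.07 FPKM (SD, n = 3 each, log2 fold change -1.78, limma adjusted p = 3.85e-06). *Tfec* (10.2 to 5.29 FPKM, log2 fold change -0.83), a relative of *Mitf*, *Cebpb* (-0.76) and *Runx1* (-0.55) fell as well. *Cebpa*, which acts on the side of basophils when their common progenitors divide into the 2 lineages, fell from 104 to 79.0 FPKM (log2 fold change -0.39).

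**Figure D3:**
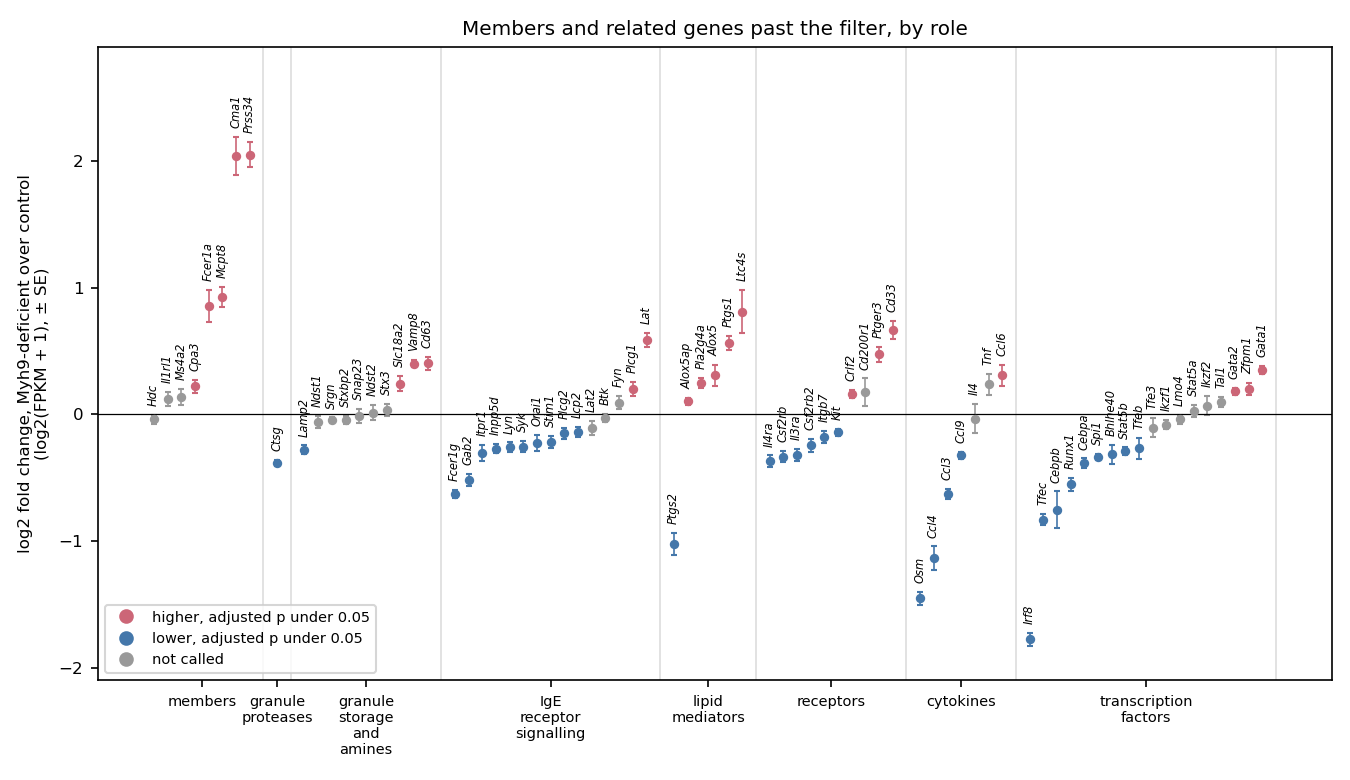
Log2 fold change (vertical axis, *Myh9*-deficient over control on the log2(FPKM + 1) scale, with SE) of each tested gene, ordered within the 10 genes (left, named members) and each role. Higher calls are red, lower calls blue and genes not called grey; *Prss34* and *Cma1* lie near 2, IgE receptor signalling genes lie mostly below 0 and lipid mediator genes mostly above it.

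*Cma1* and *Mcpt8* lie 137.49 kb apart in a cluster of chymase and granzyme genes on chromosome 14, and *Prss34* and *Tpsb2* lie 66.388 kb apart in a tryptase cluster on chromosome 17. Of 13 listed neighbours on chromosome 14, 10 had at most 3 reads in any library. The 2 tested neighbours went opposite ways: *Ctsg*, 14.608 kb from *Mcpt8*, fell, and *Gzmb* (granzyme B), 173.565 kb from *Mcpt8*, rose from 5.04 ± 0.374 to 15.9 ± 0.0631 FPKM (SD, n = 3 each, log2 fold change 1.49, limma adjusted p = 7.35e-06). On chromosome 17 none of 5 listed neighbours within 1 Mb was tested, and 4 had at most 3 reads. On chromosome 14 the higher levels were thus seen in some of the detected genes and not in all. On chromosome 17 the neighbours had too few reads to tell.

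Reads on genes numbered 17571544 to 19894562 a library, at which 3 reads on a gene of 1 kb come to 0.151 to 0.170 FPKM. *Myh9* itself had 22.0 to 23.0 FPKM in control LSKs and 17.7 to 20.0 FPKM in *Myh9*-deficient libraries (log2 fold change -0.26, limma adjusted p = 0.00642). The loxP sites flank its exon 1, and the table gives 1 value for the whole gene. The gate genes were present throughout, *Kit* at 23.9 ± 0.454 and 21.5 ± 0.334 FPKM (called lower) and *Ly6a* (Sca1) at 95.4 ± 1.87 and 89.5 ± 3.63 FPKM (SD, n = 3 each; not called). Of 9 LSK and stem cell genes, 8 were tested, 3 higher and 1 lower, against 19.9% and 20.6% of all genes tested. No difference from the rest is read from these counts. The summed level of the 9 genes was 210 to 215 FPKM in control LSKs and 217 to 225 FPKM in *Myh9*-deficient libraries.

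Markers of several other cell types moved along with *Prss34*, *Mcpt8* and *Cma1*. The calls in each marker list stand against 19.9% higher and 20.6% lower of all genes tested. Eosinophil markers summed to 27.6 to 29.0 FPKM in control LSKs and 34.9 to 38.1 FPKM in *Myh9*-deficient libraries, with 2 higher and 1 lower of 4 tested among 9. *Prg2*, a granule protein of eosinophils that basophils and mast cells also express, rose from 11.6 to 23.4 FPKM and *Epx*, eosinophil peroxidase, from 0.970 to 1.52 FPKM (past the filter only through the latter), while *Siglecf* fell from 13.2 to 8.04 FPKM. Markers of type 2 innate lymphoid cells, which carry *Il1rl1*, summed to 3.60 to 4.53 FPKM and 4.98 to 5.87 FPKM. Of these 10 genes only *Il17rb* was tested, it was not called, and *Il5* was at 0. Below the filter, 3 (*Icos*, *Arg1* and *Il2ra*) had every *Myh9*-deficient library above every control, against 17.1% of genes with any value.

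Erythroid markers summed to 546 to 553 FPKM in control LSKs and 978 to 1017 FPKM in *Myh9*-deficient libraries, and all 8 tested of 9 were higher, among them *Hbb-bt*, *Cldn13*, *Hba-a1* and *Car1*. *Hba-a1* passed the filter only through the *Myh9*-deficient libraries. Megakaryocyte markers summed to 64.0 to 68.6 FPKM and 137 to 143 FPKM, with all 4 tested of 7 higher and *Gp1bb* at 0. B and plasma cell markers summed to 68.3 to 73.2 FPKM and 104 to 109 FPKM, with 3 higher and 1 lower of 5 tested among 7, and *Jchain* rose from 30.4 to 64.0 FPKM. *Cd79a*, one of the 3, passed the filter only through the *Myh9*-deficient libraries. T and NK cell markers summed lower (351 to 361 FPKM against 282 to 288 FPKM), most of it *Nkg7*, which fell, yet 6 of the 9 had every *Myh9*-deficient library above every control, against 17.1% of genes with any value. *Cd3e* among them had 0 reads in all controls and a mean of 0.234 FPKM in *Myh9*-deficient LSKs.

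Neutrophil markers summed to 8653 to 8728 FPKM in control LSKs and 4547 to 4630 FPKM in *Myh9*-deficient libraries, with 7 lower and 1 higher of 10. Monocyte and macrophage markers summed to 640 to 676 FPKM and 281 to 299 FPKM, with 6 lower and 1 higher of 7 tested among 8; the higher one, *C1qa*, rose from 1.04 to 4.24 FPKM. *Adgre1*, one of the 6, passed the filter only through the control libraries. Of 7 lineage gate genes 6 were in the table, with 1 tested and called lower (*Ptprc*), and *Cd8a* had at most 2 reads. Untested gate genes with every *Myh9*-deficient library above every control numbered 2, *Cd3e* and *Cd4*. Mean *Cd4* was 0.311 FPKM over the controls and 0.826 FPKM over the *Myh9*-deficient libraries, on at most 67 reads a library. The part of these other cell types in the values of the mast cell and basophil genes was not tested.

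**Figure D4:**
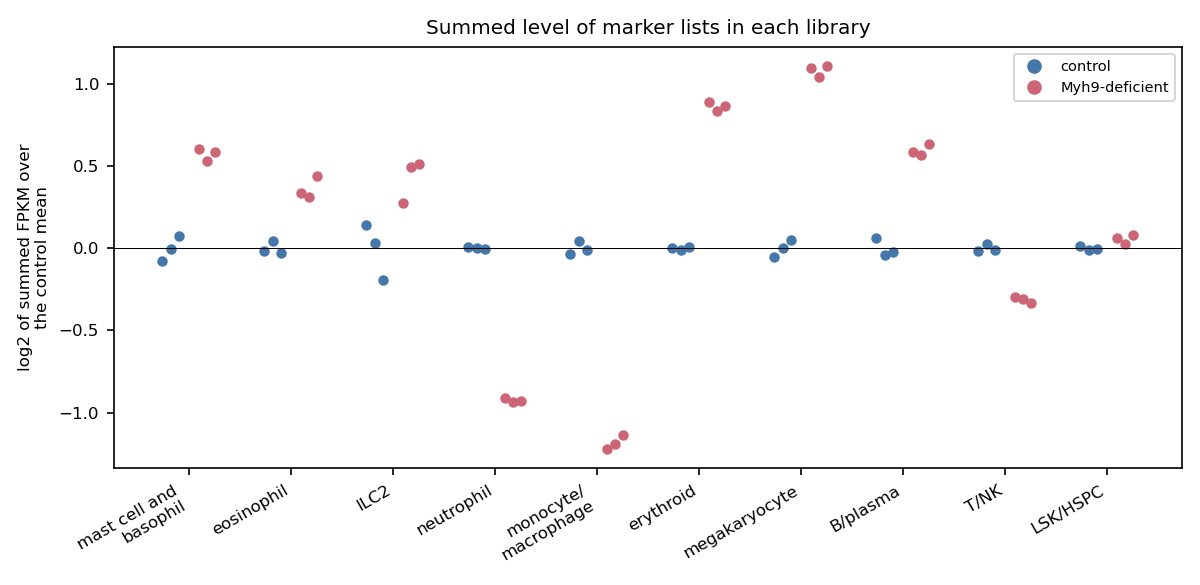
Summed FPKM of each marker list in each library as the log2 ratio to the mean of the controls (vertical axis), for control (blue) and *Myh9*-deficient (red) libraries. The 10 mast cell and basophil genes, summing to 170 to 179 FPKM in *Myh9*-deficient libraries, lie above control, as do eosinophil, ILC2 (type 2 innate lymphoid cell), erythroid, megakaryocyte and B/plasma cell lists, while neutrophil, monocyte and T/NK cell lists lie below.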

How the data were processed

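RNA-seq was measured in 6 libraries of sorted LSK cells, 3 control and 3 *Myh9*-deficient, grouped by the sample labels. The authors deposited 1 table of FPKM values with gene lengths; the submitters' processing notes name HISAT2 2.0.5 and the mm10 build, and the counting program is not given in the sources used here. FPKM times gene length came out as whole reads for 100% of values (within 0.01 read), and these reads gave the depth of 17571544 to 19894562 a library and a floor of 3 reads, which covers counting error only. Coordinates are those of the table; those of *Prss34* and *Tpsb2* differ from GENCODE M21, whose principal transcripts gave the exon numbers.

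Genes averaging 1 FPKM or more were tested on log2(FPKM + 1), 11552 in all, by the moderated linear model of limma 3.58.1 (eBayes, mean-variance trend) in R 4.3.3. Tests were two-sided, p-values were adjusted by Benjamini and Hochberg's method across the tested genes, and calls were made at an adjusted p under 0.05. The fit was tested on simulated data. FPKM is relative to each library's total, and a pseudocount of 1 shrinks the fold change of low genes. Genes below the filter were given by their values and an exact permutation test. Alternatives were other pseudocounts, filters, scalings and moderation, the study's threshold, voom on the reads, a replicate block, removal of length trends, leaving out each library and, added after seeing the data, removal of length and GC trends.

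The 10 genes and all lists were chosen with earlier results of these data known. Beside the 10 genes, the text names *Myh9*, *Kit*, *Ly6a*, up to 4 genes in each direction of each list with the largest called changes, tested genes of the protease loci, markers that define other cell types, and the 3 genes nearest each tested gene in profile. *Srgn*, *Hpgds*, *Il4*, *Lyn*, *Syk*, *Alox5ap*, *Cebpa*, *Gata2*, *Il18r1*, *Cd200r3*, *Mrgprb2*, *Il9r*, *Bhlhe41*, *Il1rap* and *Pilra* were named after their values were seen.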

Additional observations from a re-analysis of the deposited data

How the results depend on the processing

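The 5 higher calls among the 10 genes were made under every scaling, both pseudocounts, voom and each left-out library. The count was 3 with a filter of 5 FPKM, which leaves out *Cma1* and *Fcer1a*. It was 2 at the study's threshold of over 2-fold and p under 0.05, taken here as unadjusted. There *Mcpt8*, *Cpa3* and *Fcer1a* fall below 2-fold on the log2(FPKM + 1) scale. It was 6 with no filter, which adds *Tpsb2*. With the length trend removed, alone or with GC, it was again 5, with *Il1rl1* in and *Cpa3* out. The related genes gave 17 higher and 32 lower calls, and 0 and 4 at the study's threshold. With the length trend removed the log2 fold change of *Hdc* was 0.0219, and with the length and GC trends removed 0.0268, against -0.04, none of them called; the cause was not tested. Of the single-gene values under alternatives, 132 kept direction and side of the threshold, 5 lost the call, 2 gained it and 2 changed sign. These include settings that change only the filter, the moderation, the block or the threshold, which leave the log2 fold change as it was. Replicate numbers showed no pairing in these values, as deviations of same-numbered libraries correlated at -0.0046, -0.0112 and -0.0262 across genes. Those of other pairs lay between -0.00496 and 0.0164. Such deviations from means of 3 libraries cannot exclude that same-numbered libraries were handled together. A fit with the replicate block gave 5 higher and 0 lower calls among the 10 genes, and 16 higher and 30 lower among the related genes. Depth limits *Cma1* in control, *Fcer1a* and *Tpsb2*, which rest on few reads.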

Other observations

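*Il18r1*, the interleukin-18 receptor chain of basophils, mast cells and lymphocytes, starts 136 bases past the end of *Il1rl1* on chromosome 1. It was at 0.251, 0.236 and 0.249 FPKM in control LSKs and 0.909, 1.12 and 1.22 FPKM in *Myh9*-deficient LSKs, below the filter in the mean of all libraries, while *Il1rl1* was at 2.96 ± 0.057 and 3.32 ± 0.185 FPKM (SD, n = 3 each). The groups were thus apart for the neighbour by a wider ratio than for *Il1rl1* itself, and the difference between the 2 genes was not tested.

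Among 7164 other genes averaging 5 FPKM or more, the nearest profiles over the 6 libraries were found by the root mean square difference of centred log2(FPKM + 1) values. For *Prss34* the nearest were the immunoglobulin segments *Igkv14-111* (difference 0.149), *Ighv9-3* (0.166) and *Igkv1-135* (0.176), and *Igkv1-135* was also nearest to *Cma1* (0.116), followed by *Igkv5-48* and *Igkv10-94*. Immunoglobulin segments resemble each other, so their reads are assigned uncertainly. For *Mcpt8* the nearest were *Mt1* (0.0618), a metallothionein that went from 120 to 230 FPKM, *Igkv5-39* and *Dancr*, and for *Fcer1a* *Gm10156* (0.0979), *Ddit4* and *F2rl3*. *Cpa3* was nearest to *Urod* (0.0158), an enzyme of heme synthesis, then *Ssna1* and *Lamtor3*. *Ms4a2* was nearest to *Mrpl11*, *C030006K11Rik* and *Cib1*, *Hdc* to *Pigu*, *Mdh1* and *Eml4*, and *Il1rl1* to *Surf1*, *Tmem126a* and *Pfas*, all with differences of 0.0113 to 0.0247. With 3 libraries a group, such likeness mostly follows the step between the groups and was not tested.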
